A study of Mus musculus with 7 samples.

Results

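The semaphorins, with their receptors the plexins and the neuropilins, were examined in bulk RNA-seq of s/c (subcutaneous) mouse tumors of PDA, pancreatic ductal adenocarcinoma. The family was chosen by gene symbol: protein-coding rows of the count table whose mouse symbol was Sema, Plxna, Plxnb, Plxnc or Plxnd with a number, Nrp1 or Nrp2. This found 31 genes among 22629 rows, namely 20 semaphorins, 9 plexins and 2 neuropilins, and these are all the 31 genes with such symbols in the GENCODE M21 annotation. The family was proposed with results of the comparison described here already known, so that it was in part selected on these values. The tests of single genes below were made in 1 fit over the whole table and are given as a description, with no test of the family.

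The 3 sgScramble tumors, numbered 1, 4 and 5, were compared with the 4 icOVA tumors, numbered 15, 16, 18 and 2, all harvested 2 weeks after inoculation. Both kinds of tumor were formed with KPC cells, a PDA line from a tumor of a genetically engineered mouse in which Pdx1-Cre acts in the pancreas. The line had been transduced with a lentivirus for Cas9 and sgScramble, a control CRISPR guide. The icOVA cells also carried a Dox-inducible vector for icOVA, an ovalbumin that stays in the cytoplasm, together with GFP, and had been sorted and cloned from single cells, so they may stand for 1 clone. Dox food was given from the day on which the icOVA cells were inoculated. The hosts were C57BL/6 mice, bought at 6 weeks of age and housed for 2 weeks before an experiment. For its growth curves, the paper inoculated cells with the vector into mice that did or did not receive Dox. It is not stated if the cells of the 3 sgScramble tumors sequenced here were cloned or carried the vector, or if their hosts ate Dox. For tumors of the ovalbumin-inducible cells the paper inoculated 500000 cells, more than its default for s/c tumors. The number inoculated for these 3 sgScramble tumors is not stated. The foreign antigen, the vector, Dox, the number inoculated and the choice of a clone therefore cannot be told apart in any difference below. The paper used this antigen to model more immunogenic tumors, and the comparison here is between the groups as they were made.

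Semaphorins are secreted or membrane-bound guidance proteins, first known for steering growing axons, that signal through plexins. Class 3 semaphorins are secreted, and most of them need a neuropilin beside the plexin, while Sema3e binds Plxnd1 directly. Classes 4 to 7 are held on the cell surface, by a transmembrane stretch or, for Sema7a, a lipid anchor, and engage plexins or other receptors directly. In tumors, Sema3f and its receptor Nrp2 are known for effects on vessels and tumor cell migration, Sema4d is abundant on T cells and binds Plxnb1 on epithelial and endothelial cells, and Sema4a and Sema7a act on T cells and myeloid cells.

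The starts of 3 genes are shown because the results turn on them: Plxnb1, the member with the lowest log2 fold change, Sema4d, its ligand and the member with the lowest adjusted p among those that were higher, and Plxnb2, the member with the highest level per length. Each line gives the 250 bases before an annotated start, 5′ to 3′ on the gene's strand, from RefSeq on GRCm38.p6, with CG dinucleotides in capitals.
Plxnb1, chr9:109095186-109095435, plus strand: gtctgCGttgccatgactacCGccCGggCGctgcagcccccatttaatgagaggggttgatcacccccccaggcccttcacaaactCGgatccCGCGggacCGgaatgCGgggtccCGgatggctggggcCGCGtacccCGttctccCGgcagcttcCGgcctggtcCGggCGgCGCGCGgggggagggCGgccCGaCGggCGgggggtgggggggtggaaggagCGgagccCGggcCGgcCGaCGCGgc
Sema4d, chr13:51756684-51756933, minus strand: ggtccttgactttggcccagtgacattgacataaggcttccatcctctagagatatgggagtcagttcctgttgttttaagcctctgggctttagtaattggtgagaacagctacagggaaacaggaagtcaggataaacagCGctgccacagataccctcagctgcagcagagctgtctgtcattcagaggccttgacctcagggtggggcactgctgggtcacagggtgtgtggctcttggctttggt
Plxnb2, chr15:89180789-89181038, minus strand: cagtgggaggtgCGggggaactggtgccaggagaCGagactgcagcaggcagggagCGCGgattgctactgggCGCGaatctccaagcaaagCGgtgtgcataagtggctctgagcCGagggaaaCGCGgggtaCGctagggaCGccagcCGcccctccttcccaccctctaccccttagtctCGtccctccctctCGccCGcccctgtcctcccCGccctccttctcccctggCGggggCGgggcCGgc
The Plxnb1 window is rich in G and C (75.2%) and holds 30 CG dinucleotides and 4 GC boxes (GGGCGG on either strand), and 3.91% of all 32851 promoters in the table have as much G and C. The Sema4d window, 1 of 3 entries for this gene and the one farthest upstream, is 52.0% G and C, close to the median promoter (52.4%), and holds 1 CG dinucleotide and no GC box. It lies within the gene as M21 draws it. Of the other Sema4d entries, that at chr13:51739447-51739696 is 52.4% G and C with 2 CG dinucleotides and 1 GC box. That at chr13:51748811-51749060 is 55.2% G and C with 2 CG dinucleotides and no GC box. For Plxnb2, the window shown is 69.2% G and C with 20 CG dinucleotides and 4 GC boxes. Its other entry is 63.6% G and C with 13 CG dinucleotides and 3 GC boxes.

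Promoter entries were found for 26 of the 31 genes, 37 entries in all, and the genes with none were Sema3b, Sema3f, Sema6a, Plxna1 and Plxna4. The entries of the family had a median of 64% G and C, and a GC box was found in 27 of 37 (73.0%), against 32.7% of all promoters of this length. The ISRE core GAAANNGAAA was in 2 entries (5.41%), of Plxnc1 and Sema6b, against 2.98%, and the E-box CACGTG in 2 entries (5.41%), against 6.02%. All were searched on both strands, and these shares are a description of the letters in these windows.

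Total counts per tumor lay between 30904855 and 37510591. OVA counts, the check of the labels, ran from 85 to 151 in sgScramble tumors and from 3413 to 10750 in icOVA tumors. The labels do not account for the OVA counts of the sgScramble tumors. In bulk tumors, fewer cells of a type and less RNA per cell cannot be told apart. Levels are given as CPM, the count of a gene scaled to the size of its library (in counts per 1e6). The tumors differed in markers of stroma. The summed level of 12 fibroblast markers was 8066 to 18081 CPM in sgScramble tumors and 6594 to 40783 CPM in icOVA tumors, with icOVA tumors 15 and 18 far above 16 and 2, and sgScramble tumor 4 above 1 and 5. The cancer epithelial markers had a sum of 4640 to 4943 CPM in sgScramble tumors and 2938 to 5011 CPM in icOVA tumors, the lowest in icOVA tumor 18.

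All 31 genes were detected. Levels between genes were compared as CPM per kilobase of exon, averaged over the 7 tumors. Plxnb2, a receptor for class 4 semaphorins, was at 59.5 ± 5.62 CPM per kilobase (SD, n = 7), and Sema7a followed at 38.6 ± 8.99. Plxna1, which pairs with neuropilins for class 3 semaphorins, was at 20.1 ± 2.23, the secreted Sema3c at 19.0 ± 3.60 and Sema4a at 18.3 ± 4.07 CPM per kilobase. The last 3 differed by less than their spread over the tumors. At the other end, Sema5b was at 0.0598 ± 0.0511, Plxnb3 at 0.150 ± 0.0840 and Sema3d at 0.170 ± 0.171 CPM per kilobase, and 29 of the 31 genes had at least 10 counts in every tumor.

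**Figure D1:**
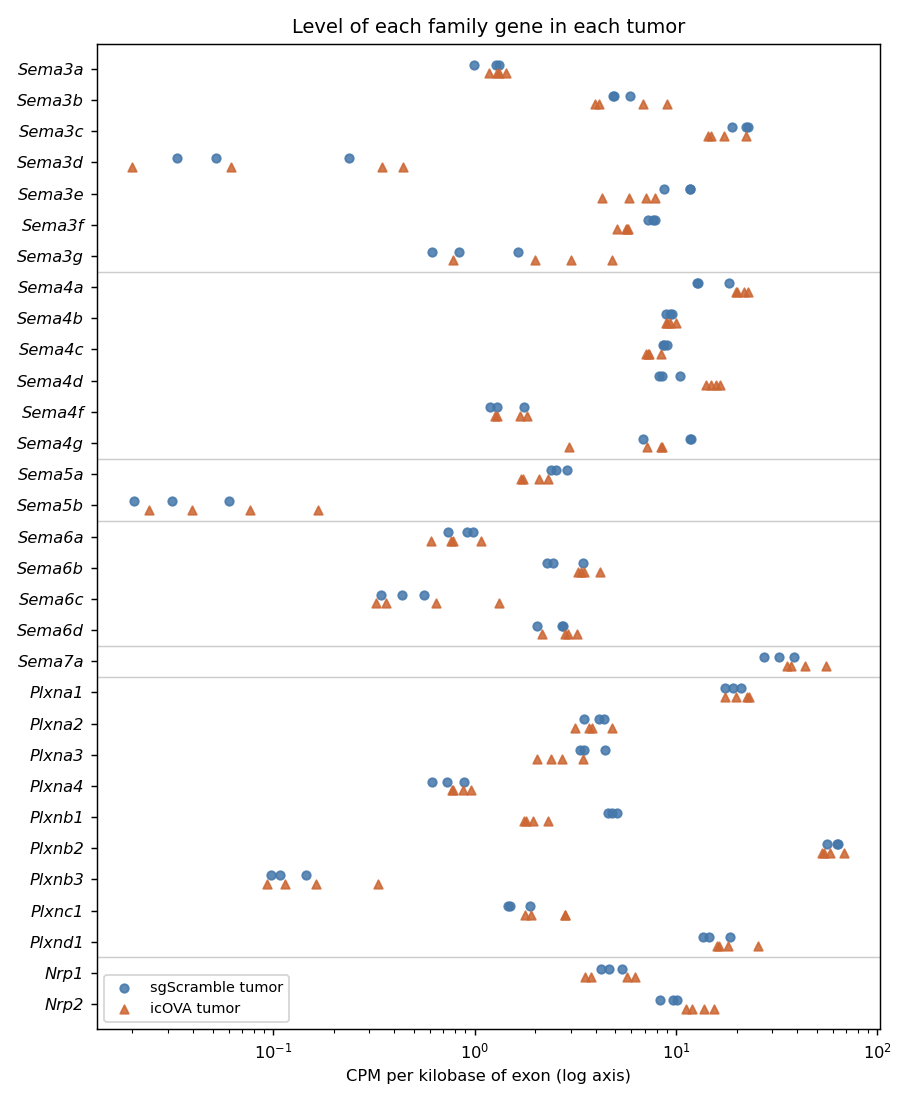
Level of each of the 31 genes in each tumor, as CPM per kilobase of exon on a log axis, with circles for the 3 sgScramble tumors, triangles for the 4 icOVA tumors and grey lines between the classes. Plxnb2 has the highest mean and Sema5b the lowest, and the groups lie apart for Plxnb1 and Sema4d.

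Between the groups, Sema4d rose in icOVA tumors, and Plxnb1 and Sema3f fell. The other 28 genes did not pass an adjusted p of 0.05 (edgeR, quasi-likelihood F test, Benjamini-Hochberg over the 17489 genes that passed the filter on low counts, all 31 family genes among them). Log2 fold changes are those of icOVA over sgScramble tumors, above 0 where icOVA tumors were higher, and every ± after a log2 fold change is its SE. Thus 1 of 31 genes (3.23%) was called higher, where 3.36% of all genes were, and 2 of 31 (6.45%) were called lower, where 2.54% of all genes were. The median log2 fold change of the family was 0.13, and that of all genes tested was -0.0048, with 20 family genes above 0 and 11 below it. Every icOVA tumor lay above every sgScramble tumor for 3 genes (9.68%), Sema4d, Sema4a and Nrp2, against 11.3% of all genes. Every icOVA tumor lay below every sgScramble tumor for 5 genes (16.1%), Plxnb1, Sema3f, Sema3e, Sema5a and Sema4c, against 13.3% of all genes. These shares are near those of all genes, and 2 genes are too few to set the share called lower apart from them. With DESeq2, which called 8.91% of all genes higher and 7.31% lower, 3 family genes were higher (Sema4d, Nrp2 and Sema4a) and 4 were lower (Plxnb1, Sema3f, Sema3e and Sema5a).

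**Figure D2:**
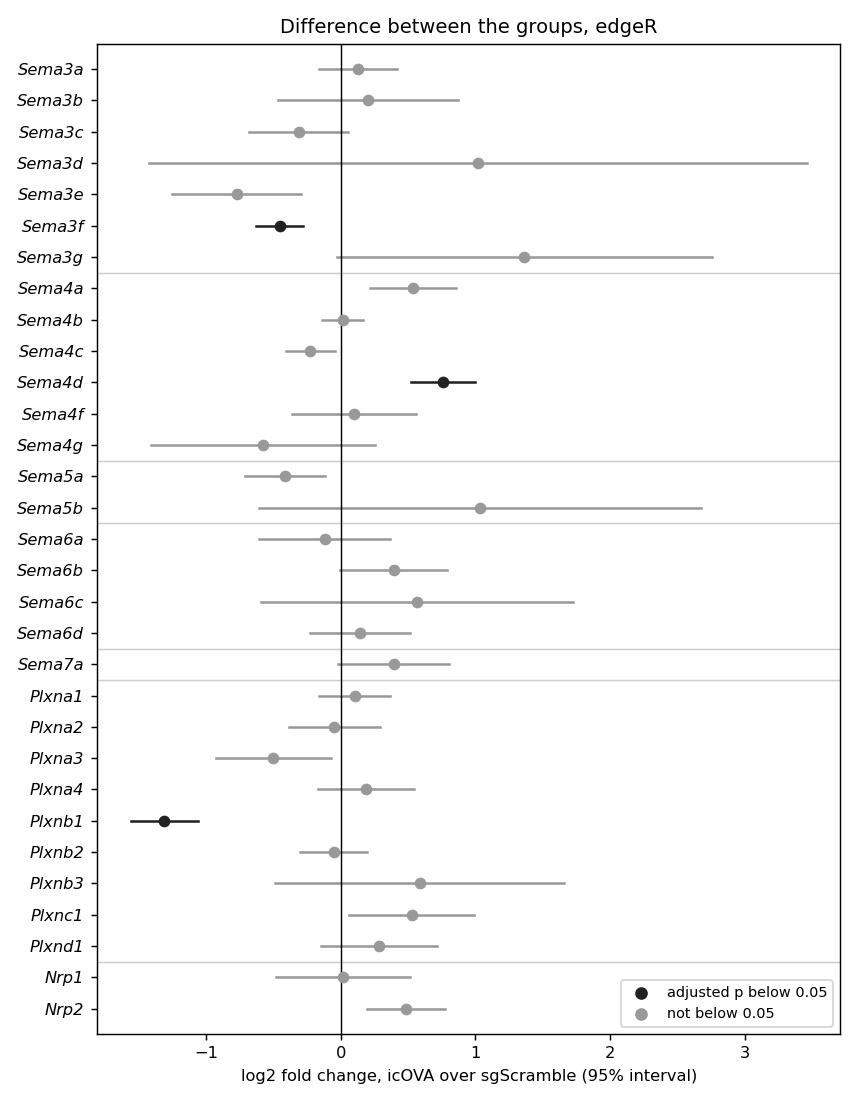
Log2 fold change of each of the 31 genes, icOVA over sgScramble tumors, from edgeR, with the 95% interval as a line. The 3 dark points, Sema3f, Sema4d and Plxnb1, passed an adjusted p of 0.05, and the grey points did not.

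Among the class 4 semaphorins, Sema4d (chr13:51685529-51793747, minus strand, GRCm38), the CD100 of T cells, was measured at 65.3, 80.0 and 63.0 CPM in sgScramble tumors 1, 4 and 5 and 127, 115, 121 and 108 CPM in icOVA tumors 15, 16, 18 and 2. The lowest icOVA tumor was above the highest sgScramble tumor, which was tumor 4. The means were 69.5 ± 9.20 CPM over the 3 sgScramble tumors against 118 ± 8.39 CPM over the 4 icOVA tumors (± SD), a log2 fold change of 0.76 ± 0.10 (adjusted p = 0.0230) with a 95% interval of 0.52 to 1.0. It stayed between 0.70 and 0.88 when any 1 tumor was left out, but the call was lost without icOVA tumor 15 or 2 or sgScramble tumor 1 or 5 (adjusted p = 0.0614 to 0.122). Without sgScramble tumor 1, sgScramble tumor 5 and icOVA tumor 15 in turn, edgeR called no gene of the whole table, although 3087, 2936 and 3415 genes had an unadjusted p below 0.05.

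Sema4a, which acts on T cell priming and differentiation, was at 69.3, 98.5 and 68.3 CPM in the sgScramble tumors and 117, 108, 124 and 108 CPM in the icOVA tumors. The icOVA tumors lay close together and above all the sgScramble tumors, of which tumor 4 was nearest to them. The log2 fold change was 0.54 ± 0.14 (adjusted p = 0.0609). Without sgScramble tumor 4 it was 0.74, with an adjusted p of 0.0121, and the adjusted p over all omissions ran from 0.0121 to 0.224.

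Sema4c, a ligand of Plxnb2, was at 39.9, 41.2 and 39.6 CPM in the sgScramble tumors and 32.4, 33.2, 38.5 and 33.6 CPM in the icOVA tumors, lower in every icOVA tumor though by little, with a log2 fold change of -0.22 ± 0.080 (adjusted p = 0.123). Without icOVA tumor 18, the highest of its group, it was -0.28, and the adjusted p ran from 0.0464 there to 0.307 over the omissions. Its antisense neighbour D430040D24Rik overlaps 334 bases of its exons and had a mean of 34.9 counts. The library kit marks strand, but whether the counting used it is not stated, so these reads cannot be told apart. Sema4b had a log2 fold change of 0.01 with a 95% interval of -0.14 to 0.17. For Sema4f the log2 fold change was 0.10 ± 0.20 (adjusted p = 0.783). Sema4g had the widest spread of the class, at 102, 59.2 and 101 CPM in the sgScramble tumors and 73.9, 72.7, 25.6 and 62.3 CPM in the icOVA tumors, where icOVA tumor 18 lay far below the other icOVA tumors and sgScramble tumor 4 below the other sgScramble tumors, and the log2 fold change was -0.58 ± 0.36 (adjusted p = 0.332).

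The receptor Plxnb1 (chr9:109095389-109119917, plus strand, GRCm38), through which Sema4d acts on the cytoskeleton by way of RhoA, had 44.2, 46.2 and 48.9 CPM in sgScramble tumors 1, 4 and 5 and 16.9, 18.7, 17.2 and 22.2 CPM in icOVA tumors 15, 16, 18 and 2. The highest icOVA tumor was tumor 2, and it was still below every sgScramble tumor by more than 20 CPM. Means were 46.4 ± 2.31 CPM over the 3 sgScramble tumors against 18.7 ± 2.42 CPM over the 4 icOVA tumors (± SD), so that icOVA tumors held 40.3% of the sgScramble mean. Plxnb1 fell by 1.31 on the log2 scale (SE 0.11, adjusted p = 0.0143), with a 95% interval of -1.56 to -1.06. Leaving out 1 tumor gave values from -1.39 to -1.25, and the call was lost without icOVA tumor 15 or sgScramble tumor 1 or 5 (adjusted p = 0.0725 to 0.112). Gm7628, on the other strand, overlaps 257 bases of its exons, and had a mean of 3.57 counts.

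Plxnb2, by contrast, was at 491, 484 and 432 CPM in the sgScramble tumors and 449, 529, 409 and 421 CPM in the icOVA tumors. The groups overlapped fully, and the 95% interval of the log2 fold change, -0.30 to 0.20, leaves out a change of the size seen for Plxnb1. As a result, Plxnb1 made up 9.04% ± 0.99 (SD, n = 3) of the CPM of the 3 plexin B genes in sgScramble tumors and 4.01% ± 0.70 (SD, n = 4) in icOVA tumors. Plxnb3, a receptor of Sema5a, was near the floor of the table, at 0.760 and 1.14 CPM on average in the 2 groups. For each CPM of Plxnb1 there were 1.50 ± 0.22 CPM of its ligand Sema4d in sgScramble tumors (SD, n = 3) and 6.40 ± 1.18 CPM in icOVA tumors (SD, n = 4). This ratio, which follows from both calls above and is no further evidence, was 1.29 to 1.73 in sgScramble tumors and 4.85 to 7.55 in icOVA tumors. Neither the plexin B share nor this ratio was scaled to exon length, so they do not give the levels of these genes relative to each other.

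Of the class 3 semaphorins, 1 of 7 was called lower (14.3%, against 2.54% of all genes) and none higher (against 3.36%). With 1 call, already counted for the family, these shares set the class apart in neither direction. Sema3f (chr9:107681500-107710475, minus strand, GRCm38), a ligand of Nrp2 that repels endothelial cells, was at 37.9, 40.0 and 40.7 CPM in sgScramble tumors 1, 4 and 5 and 29.5, 29.8, 26.3 and 29.9 CPM in icOVA tumors 15, 16, 18 and 2. The groups did not overlap, and the tumors of each lay close together. Sema3f fell by 0.45 on the log2 scale (SE 0.075, adjusted p = 0.0271), from means of 39.5 ± 1.48 CPM (SD, n = 3) to 28.9 ± 1.72 CPM (SD, n = 4). Leaving out 1 tumor gave -0.48 to -0.41, and the call was lost without icOVA tumor 15 or 2 or sgScramble tumor 1 or 5 (adjusted p = 0.0669 to 0.134).

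Sema3e, the ligand of Plxnd1, was at 109, 80.5 and 109 CPM in the sgScramble tumors and 54.3, 72.8, 39.7 and 65.8 CPM in the icOVA tumors. Every icOVA tumor was below every sgScramble tumor, but the spread was wide in both groups, and the log2 fold change was -0.77 ± 0.21 (adjusted p = 0.0664). The omission of icOVA tumor 16 gave -0.90 with an adjusted p of 0.0404, and over all omissions the adjusted p ran from 0.0404 to 0.243. Sema3c, which binds both neuropilins and has the highest level per length of its class, was at 163, 136 and 159 CPM in the sgScramble tumors and 106, 159, 123 and 103 CPM in the icOVA tumors, and its groups overlapped through icOVA tumor 16, with a log2 fold change of -0.31 ± 0.16 (adjusted p = 0.245). Without that tumor it was -0.46, and the adjusted p over the omissions ran from 0.0422 there to 0.522. Sema3a, which collapses axon growth cones, had a log2 fold change of 0.13 with a 95% interval of -0.16 to 0.41.

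Sema3g, a semaphorin of vessels, had the highest fold of the family and no call, at 2.79, 7.44 and 3.80 CPM in the sgScramble tumors and 13.6, 3.55, 21.9 and 9.02 CPM in the icOVA tumors. The log2 fold change was 1.36 ± 0.60 (adjusted p = 0.191), and icOVA tumor 16 lay among the sgScramble tumors. For Sema3b the log2 fold change was 0.20 ± 0.29 (adjusted p = 0.687), and icOVA tumor 18, at 43.2 CPM, was the highest tumor. Sema3d ran from 0.172 to 3.80 CPM within the icOVA group alone, and the log2 fold change of 1.02 had a 95% interval of -1.42 to 3.46. Sema3b and Sema3f are 72.3 kilobases apart on chromosome 9, and the latter alone passed the test.

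Sema7a, which binds Plxnc1 and integrins, was at 106, 127 and 90.5 CPM in the sgScramble tumors and 145, 118, 183 and 123 CPM in the icOVA tumors. The groups overlapped, since icOVA tumors 16 and 2 were below sgScramble tumor 4, and the log2 fold change was 0.39 ± 0.18 (adjusted p = 0.199). Its receptor Plxnc1 was at 12.3, 15.7 and 12.5 CPM in the sgScramble tumors and 23.3, 14.9, 23.5 and 15.9 CPM in the icOVA tumors, with icOVA tumors 15 and 18 above the rest and a log2 fold change of 0.53 ± 0.20 (adjusted p = 0.143). Sema5a, which promotes or inhibits axon growth by context, was at 53.9, 47.5 and 45.0 CPM in the sgScramble tumors and 31.9, 39.0, 43.4 and 32.3 CPM in the icOVA tumors. Each icOVA tumor was below each sgScramble tumor, and the log2 fold change was -0.41 ± 0.13 (adjusted p = 0.0926), or -0.50 without icOVA tumor 18, with an adjusted p from 0.0441 there to 0.305 over the omissions. Sema5b, its paralog, was at 0.144 to 1.18 CPM over the 7 tumors.

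The class 6 semaphorins, ligands of plexins of class A, had no call among 4 genes. Sema6b had a log2 fold change of 0.39 ± 0.17 (adjusted p = 0.188), Sema6c of 0.57 ± 0.50 (adjusted p = 0.496), Sema6d of 0.14 ± 0.16 (adjusted p = 0.593) and Sema6a of -0.12 ± 0.21 (adjusted p = 0.748). The wide error of Sema6c goes with icOVA tumor 18, which had 7.85 CPM where the other 6 tumors had from 1.93 to 3.84 CPM.

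No plexin of class A passed the test. Plxna1 was at 174, 190.5 and 159 CPM in the sgScramble tumors and 179, 203, 209 and 158 CPM in the icOVA tumors, with a log2 fold change of 0.10 and a 95% interval of -0.16 to 0.37, and Gm26811, antisense to 970 bases of its exons, had a mean of 2.86 counts. Plxna3, a receptor of Sema3f with Nrp2, had 35.0, 26.2 and 27.6 CPM in the sgScramble tumors and 16.1, 27.2, 18.9 and 21.5 CPM in the icOVA tumors, and icOVA tumor 16 alone was inside the sgScramble range, for a log2 fold change of -0.50 ± 0.19 (adjusted p = 0.136). It was -0.65 without tumor 16, with an adjusted p from 0.0451 there to 0.406 over the omissions. For Plxna2 the log2 fold change was -0.05 (95% interval -0.39 to 0.29) and for Plxna4 it was 0.19 (-0.17 to 0.55). Plxnd1, the endothelial receptor of Sema3e, was at 107, 135 and 99.2 CPM in the sgScramble tumors and 132, 117, 186 and 119 CPM in the icOVA tumors. It was highest in icOVA tumor 18 and, among sgScramble tumors, in tumor 4, and the log2 fold change was 0.28 ± 0.19 (adjusted p = 0.355).

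The neuropilins, which hold class 3 semaphorins and VEGF, differed in pattern. Nrp2 was at 114, 120.4 and 98.8 CPM in the sgScramble tumors and 142, 183, 163 and 133 CPM in the icOVA tumors, above every sgScramble tumor in each icOVA tumor, with icOVA tumor 16 the highest. The log2 fold change was 0.49 ± 0.13 (adjusted p = 0.0613). Nrp1 was at 41.7, 53.0 and 45.3 CPM in the sgScramble tumors and 55.9, 36.9, 61.3 and 34.7 CPM in the icOVA tumors. Here icOVA tumors 15 and 18 were above all sgScramble tumors and 16 and 2 below them, so that the mean difference of 0.02 with a 95% interval of -0.48 to 0.51 covers tumors on both sides. Whether Nrp1 and Nrp2 differed from each other in response was not tested.

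**Figure D3:**
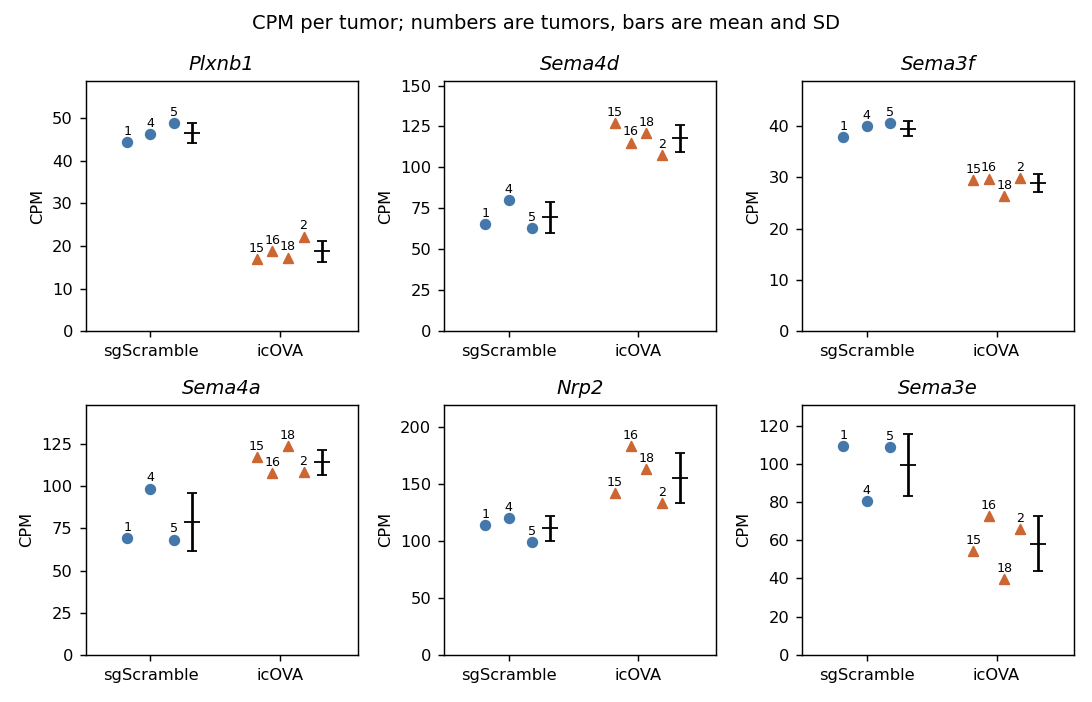
CPM in each tumor for Plxnb1, Sema4d, Sema3f, Sema4a, Nrp2 and Sema3e, with numbers for tumors and bars for mean and SD, on axes that start at 0. The groups do not overlap in any of the 6 panels, whose genes were picked after their values were seen. The gap is widest against the spread for Plxnb1, at 44 to 49 CPM against 17 to 22 CPM.

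The markers of other cell types moved with some of these genes. Of 12 T cell markers, 11 rose in icOVA tumors, and their summed level was 131 to 202 CPM in sgScramble tumors and 285 to 453 CPM in icOVA tumors, with none at 0. Lck and Cd3g were 2 of them, at log2 fold changes of 1.11 and 1.13. Of the macrophage list 2 of 10 rose, of the B and plasma cell list 2 of 8, and of the dendritic cell list 1 of 9, where 3.36% of all genes were called higher. No gene of the endothelial, fibroblast, mural cell, cancer epithelial, neutrophil, Schwann cell and nerve, skeletal muscle or adipocyte lists passed the test, and no cell type marker of the 110 tested was called lower. The 16 calls rest, like those of the family, on sgScramble tumors 1 and 5 and icOVA tumor 15, without any of which there was no call. Without icOVA tumor 2, 6 genes of the whole table were called higher, so that most of the 16 were lost there too.

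Sema4d was set against Ptprc and the T cell list, a choice made after its values were seen. Per 100 CPM of Ptprc, the CD45 of all leukocytes, Sema4d was 49.5, 45.6 and 54.4 CPM in the sgScramble tumors and 35.0, 44.6, 38.8 and 41.4 CPM in the icOVA tumors, lower in each. Ptprc itself was at 141 ± 30.7 CPM (SD, n = 3) and 298 ± 50.0 CPM (SD, n = 4). For 100 CPM of the T cell list there were 39.6 to 50.0 CPM of Sema4d in sgScramble tumors and 28.1 to 40.4 CPM in icOVA tumors, ranges that overlap through icOVA tumor 16. The macrophage sum was 1117 to 1522 CPM in sgScramble tumors and 1501 to 2310 CPM in icOVA tumors. The dendritic cell sum was 86.4 to 113 CPM in sgScramble tumors and 102 to 155 CPM in icOVA tumors. In both sums the groups overlapped only in that icOVA tumor 16 lay below sgScramble tumor 4. The B and plasma cell sum did not overlap, at up to 9.85 CPM in sgScramble tumors and at least 12.1 CPM in icOVA tumors. The part of T cells or other leukocytes in the difference of Sema4d was not tested.

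Plxnb1, Sema3f and Sema3e were set against the cancer epithelial list in the same way. Per 1000 CPM of that list, Plxnb1 was 8.95, 9.97 and 9.92 CPM in the sgScramble tumors and 3.42, 3.73, 5.86 and 4.76 CPM in the icOVA tumors, without overlap. Sema3f, by contrast, was 7.66, 8.63 and 8.26 CPM against 5.99, 5.94, 8.96 and 6.42 CPM, where icOVA tumor 18 was above all the sgScramble tumors. For Sema3e the means were 20.5 ± 2.72 CPM (SD, n = 3) and 13.3 ± 1.58 CPM (SD, n = 4). Without icOVA tumor 18, in which the epithelial markers were lowest, the log2 fold changes before this scaling were -1.27 for Plxnb1, -0.41 for Sema3f and -0.63 for Sema3e.

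An order of the tumors seen in several marker sums recurred in part of the family. In 13 of 31 genes (41.9%), icOVA tumors 15 and 18 were both above 16 and 2, and sgScramble tumor 4 was above 1 and 5, as in the summed fibroblast, endothelial, mural cell, T cell, macrophage and dendritic cell markers. The order held for 16.8% of all genes tested. It was taken from the marker sums after they were seen, and the 13 genes were Sema3b, Sema3d, Sema3g, Sema4a, Sema4d, Sema5b, Sema6a, Sema6c, Sema7a, Plxnb3, Plxnc1, Plxnd1 and Nrp1. They include all 4 family genes with a mean under 5 CPM, Sema3d, Sema5b, Sema6c and Plxnb3, so part of these orders rests on low counts. The reverse order was found for Sema3e and Plxna3 (6.45%), and for 15.8% of all genes. Plxnb1 and Sema3f followed neither. Stromal and vessel markers and part of the immune markers share this order. The neutrophil sum did not, at 104 and 88.5 CPM in icOVA tumors 15 and 18 and 131 and 116 CPM in 16 and 2. Nor did the B and plasma cell sum, where sgScramble tumor 5 (9.85 CPM) was above tumor 4 (8.48 CPM). The part of any of these cell types in the levels of the family was not tested.

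**Figure D4:**
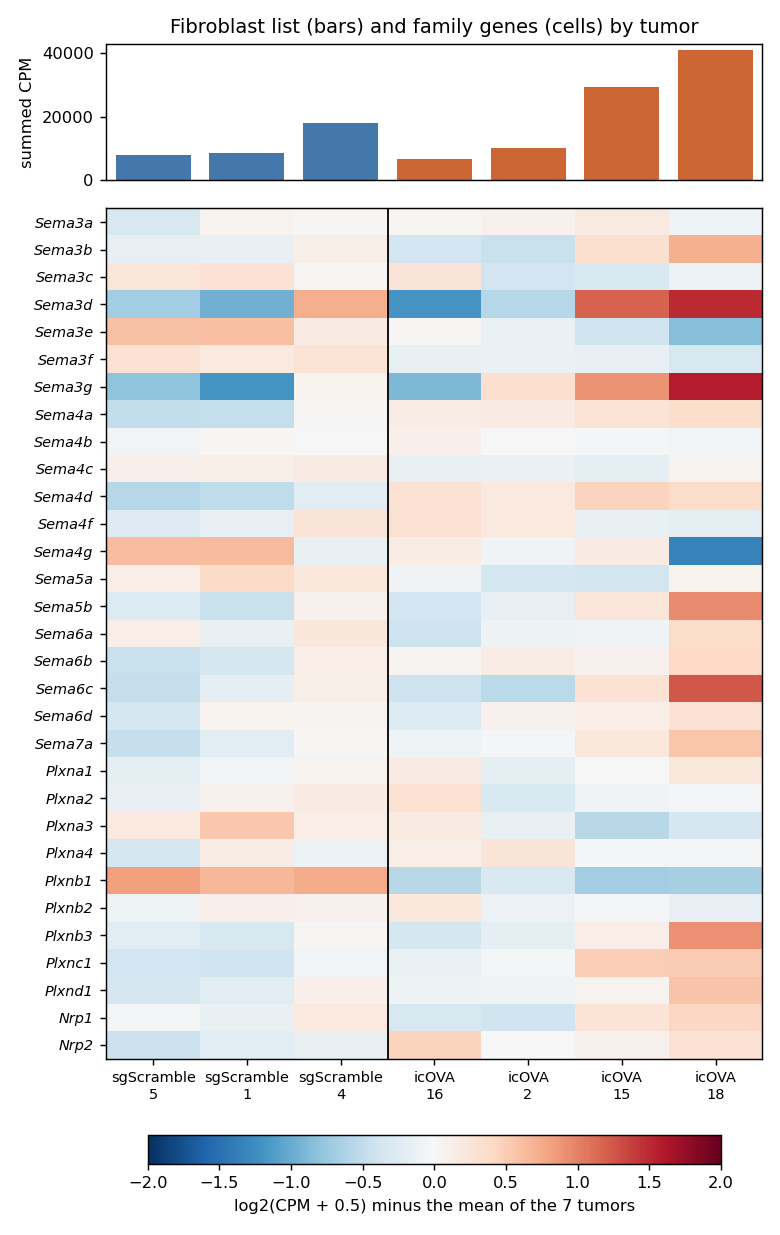
Bars give the summed CPM of 12 fibroblast markers in each tumor, and cells give log2(CPM + 0.5) of each of the 31 genes minus its mean over the 7 tumors, with tumors ordered by the bars within each group. Sema3d, Sema3g and Sema6c deepen in red toward icOVA tumor 18, where the bar reaches 40783 CPM, and Plxnb1 changes colour at the line between the groups.

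Genes that work with the family were taken from lists of partner receptors, VEGF-type ligands, effectors and proteases. Of 68 listed, 64 were tested, and 4 rose (6.25%, against 3.36% of all genes) and 2 fell (3.13%, against 2.54% of all genes), shares that with so few genes set the lists apart in neither direction. Erbb2, a receptor kinase that Plxnb1 binds and that Sema4d can activate through it, fell by 0.61 on the log2 scale (SE 0.14, adjusted p = 0.0464). Gipc1, an adaptor that binds the tails of neuropilins and plexins, fell by 0.40 (SE 0.082, adjusted p = 0.0378). Those that rose were Tyrobp, the adaptor of Trem2 in myeloid cells (log2 fold change 0.69, adjusted p = 0.0418), Fyn, a Src kinase of T cells and of Sema3a signaling (0.59, adjusted p = 0.0370), Hpse, the heparanase (0.46, adjusted p = 0.0443), and Ptprj, a receptor phosphatase (0.38, adjusted p = 0.0418). None of the 7 VEGF-type ligands passed. Met, which Plxnb1 also binds, had a log2 fold change of -0.02. These 6 calls became 0 to 7 when 1 tumor was left out, and were 0 without icOVA tumor 15 or 2 or sgScramble tumor 1 or 5.

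The other axon guidance families were read the same way. Of 34 tested genes of the slits and robos, netrins, ephrins and their receptors, none rose and 3 fell. Robo2, a receptor for slits, fell by 2.14 on the log2 scale (SE 0.38, adjusted p = 0.0292), from 3.94 ± 0.51 CPM (SD, n = 3) to 0.89 ± 0.46 CPM (SD, n = 4). Efna4, an ephrin, fell by 1.03 (SE 0.21, adjusted p = 0.0373) and Ephb4, a receptor for ephrin B ligands, fell by 0.67 (SE 0.12, adjusted p = 0.0280). A share of 3 in 34 (8.82%) stands beside 2.54% of all genes, and with 3 genes it sets nothing apart.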

How the data were processed

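RNA-seq libraries were made with a stranded Illumina kit and read as single reads. The authors deposited raw counts per gene, whole numbers without normalization, for the 7 tumors. The submitters' processing notes name mm10 as the genome build. The aligner, the counting tool and its strand setting were not given in the sources used here. Symbols, exon lengths and coordinates came from GENCODE M21 on GRCm38, and 22415 of 22629 rows had a symbol.

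Groups were compared with edgeR 4.0.16 under R 4.3.3 (filterByExpr, minimum count 10 and total 15, TMM, quasi-likelihood test, Benjamini-Hochberg adjustment over 17489 genes, threshold 0.05). CPM use TMM library sizes. The SE is the log2 fold change divided by the square root of F, and 95% intervals use its degrees of freedom. Libraries of a group differed from each other by more than sampling noise. Each tumor is a sample of its own in the labels, and p-values weigh the group difference against the spread between these tumors. The p-values do not cover variation between cell clones. The code was tested on simulated data.

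Alternatives were DESeq2 1.42.0, limma-voom 3.58.1, other scalings, filters and dispersion, and omission of each tumor. The members and lists were chosen with earlier results of these data known. Every member is accounted for. Values per tumor are given for genes past the threshold, the 5 of highest level per length, and others picked after their values were seen. Planned correlations with marker levels were replaced by values set side by side. A further motif searched is not reported here. Python 3.11.15 drew the figures with matplotlib 3.10.9.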

Additional observations from a re-analysis of the deposited data

Results flagged for a closer look

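Among the icOVA tumors, Sema3f was lowest in tumor 18, at 26.3 CPM where the other 3 tumors had 29.5 to 29.9 CPM, and the gap to the nearest tumor was 0.884 of the group's range on the log2(CPM + 0.5) scale. Sema4g was lowest in the same tumor, at 25.6 CPM where the others had 62.3 to 73.9 CPM, with a gap of 0.839 of the range. Both exceed Dixon's 95% critical value for 4 samples. They were 2 of 31 genes tested in this group, where chance gives about 1 in 20. Tumor 18 also had the highest fibroblast and the lowest cancer epithelial marker sums, and the part of either was not tested. Without it, the log2 fold change was -0.41 for Sema3f, which was still called (adjusted p = 0.0253), and -0.33 for Sema4g.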

How the results depend on the processing

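The paper's figure legend describes the sgScramble and icOVA-expressing cells as paired. No paired analysis was possible because the labels name no pairs and no tumor number occurs in both groups. DESeq2 moved the counts: 3 family genes higher and 4 lower, 1558 and 1278 of all genes, and 15 pathway genes in either direction. Under limma-voom, both other scalings, both other filters and robust dispersion, the same 3 family genes were called. When 1 tumor was left out, 0 to 2 family genes were called higher and 0 to 5 lower, 0 to 1014 and 0 to 716 of all genes, and 0 to 7 pathway genes, and the family median ran from 0.021 to 0.18. The count was 0 over all genes on omission of sgScramble tumor 1 (3087 genes at an unadjusted p below 0.05), sgScramble tumor 5 (2936) or icOVA tumor 15 (3415), and 6 higher and 2 lower, Plxnb1 among them, without icOVA tumor 2. Sema4d, Sema3f and Plxnb1 kept their direction throughout. With all tumors, the sign turned for Nrp1 under limma-voom (-0.018) and Sema4b under scaling by total counts (-0.0024). Over the omissions, it turned for Nrp1 (-0.13 to 0.15), Plxna2 (-0.17 to 0.045), Sema4b (-0.020 to 0.037), Sema4f (-0.0033 to 0.29), Sema3b (-0.062 to 0.36) and Sema6c (-0.0089 to 0.80). The cause was not tested. Of 215 other values of single genes from all tumors, 209 kept direction and call, and of 215 from omissions, 186 did. Depth limits Sema3d and Sema5b, which had under 10 counts in at least 1 tumor.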
